A study of Mus musculus with 16 samples.

Results

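CD surface antigens are the membrane proteins that carry a cluster of differentiation number in their gene name. They were taken as every gene whose symbol is Cd followed by a number, with at most 1 further letter and 1 further digit, and Cd207 and Cd5l were left out. By this rule 66 genes on 75 rows were found among the 6000 gene names on 6258 rows of the 3 tables of group values. Of the 86 protein-coding mouse genes that RefSeq names in this form, these were 66, with Cd244 matched to its current name Cd244a, and the other 20 were not analysed here.

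CD numbers were given to surface proteins recognised by antibodies, first on leukocytes, and the numbered proteins belong to many families. In the liver, T, B and NK lymphocytes, Kupffer cells, sinusoidal endothelial cells and hepatocytes each carry a known set of them. Hepatic stellate cells (HSCs) are the vitamin A-storing pericytes of the space of Disse and become matrix-producing cells after injury.

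RNA was sequenced from 16 samples of male C57/Bl6 mice per the labels, all of them sorted HSCs. Of these, 6 were quiescent HSCs (qHSCs) from 3 uninjured WT1CreERT2;Ai14 animals given tamoxifen in utero at E10.5, each sorted into RFP-positive (lineage label-positive) and RFP-negative (lineage label-negative) cells. In these animals a tamoxifen-dependent Cre at the WT1 locus switches on a red reporter in cells that express WT1 at labelling and in their descendants. The labels give the qHSC animals as male, whereas the study's methods give female animals for this isolation. The other 10 samples were RFP-positive activated HSCs (aHSCs) of adult animals injured with carbon tetrachloride for 8 weeks, from PDGFRbCre;WT1 fl/GFP;Ai14 animals (WT1-deleted) and PDGFRbCre;WT1 +/GFP;Ai14 animals (control). All aHSC animals carried the constitutive PDGFRbCre, the red reporter and 1 WT1 allele replaced by GFP, so the controls had 1 working WT1 allele. GFP-high cells had 3 samples of each genotype and GFP-low cells, which the study calls GFP-intermediate, had 2. The aHSC samples came from 6 animals, and 1 GFP-low control sample was pooled from 2 animals.

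The values are FPKM, RNA fragments scaled to the length of the transcript and to the number of mapped fragments, with 1 value for each group and gene that the authors set from all samples of the group. The spread between animals and the depth of each sample are therefore unknown, no value has an SD, and no difference was tested here. The tables list genes selected by the authors, whose methods give a limit of 0.05 on the adjusted p, and the GFP tables hold more genes than the study counts as changed. Each count below is therefore a count among listed genes. A gene without a value was not analysed here, which holds for Wt1 itself, so the deletion could not be checked in these values. In bulk RNA, fewer cells of a type and less RNA in each cell cannot be told apart.

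The labelled cell type was checked against markers in the qHSC table of 5716 rows. Of 12 stellate cell markers 6 were listed, 3 of them higher in each fraction, while Lrat, Reln, Des, Ecm1, Gfap and Hand2 were without a value. Dcn, Vipr1 and Pdgfrb were higher in label-negative and Hgf and Colec11 were among those higher in label-positive cells. Pdgfrb, with 0.905 and 0.370 FPKM in label-negative and label-positive cells, was below 1 FPKM in both. So was Colec11, with 0.221 and 0.882 FPKM. The 6 listed markers summed to 146 FPKM in label-negative cells and to 103 FPKM in label-positive cells. Dcn, with 109 and 49.0 FPKM, set the direction of this sum. Markers of other liver cells were listed as well. All 12 sinusoidal endothelial markers summed to 4170 FPKM in label-negative and 11196 FPKM in label-positive cells. The 12 T and NK lymphocyte markers summed to 1307 and 49.9 FPKM, the 10 B lymphocyte markers to 1177 and 104 FPKM, the 10 listed macrophage markers to 1864 and 1031 FPKM, and the 11 listed hepatocyte markers to 194 and 1232 FPKM. Of the B lymphocyte sums, Ighm held 672 and 94.2 FPKM. Lyz2, with 1283 and 289 FPKM, carried the macrophage sum, and without it, a step chosen after its values were seen, the other 9 summed to 582 and 742 FPKM, the opposite direction. None of these markers was at 0 in either fraction. The lymphocyte markers were all higher in label-negative cells, and the listed sinusoidal endothelial and hepatocyte markers were all higher in label-positive cells. The stellate and macrophage markers were split. The part of these cell types in the differences described next was not tested.

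In qHSCs the CD antigens separated the fractions mostly in 1 direction. They had 64 rows for 63 genes, since Cd37 was on 2 rows, and 50 rows were higher in lineage label-negative and 14 in lineage label-positive cells. The 50 rows are 78.1% of the members, against 49.6% of all 5716 listed rows, and the 14 rows are 21.9%, against 50.4%. At least 2-fold higher in label-negative cells were 49 member rows, 76.6% against 43.5% of all rows. Further out, 23 members, 35.9%, were at least 10-fold higher in label-negative cells, against 11.6% of all rows. In the other direction all 14 members were at least 2-fold higher in label-positive cells, which is 21.9% against 37.7% of all rows, and 1 was at least 10-fold higher, 1.56% against 2.61%. The median log2 ratio of group FPKM, label-positive over label-negative, was -2.68 for the members and 0.64 for the 5584 rows above 0 in both fractions. With each log2 ratio centred on that 0.64, 5 members in place of 14 were at least 2-fold higher in label-positive cells. These shares describe listed genes and carry no test.

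**Figure D1:**
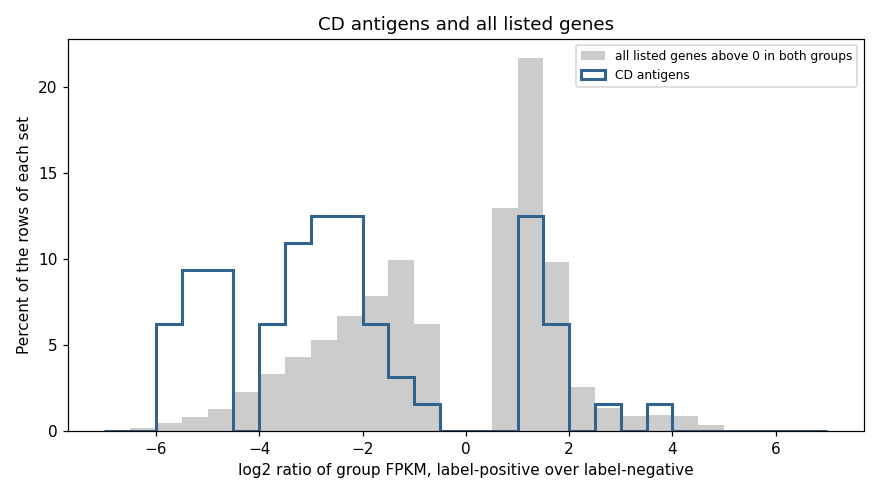
Percent of rows (vertical axis) in each 0.5-wide step of the log2 ratio of group FPKM, label-positive over label-negative qHSCs (horizontal axis), for the 5584 listed rows above 0 in both groups (grey) and the 64 CD antigen rows (blue line). Most CD antigens lie below 0, with a median of -2.68, while the listed genes as a whole have their highest bar between 1 and 1.5.

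The signalling chains of the T cell receptor were all far higher in label-negative cells. Cd3d, Cd3e and Cd3g form the CD3 dimers of the receptor and Cd247 is the zeta chain that carries most of its signalling motifs. Cd3g had 147 FPKM in label-negative and 5.98 FPKM in label-positive cells, and Cd3e had 101 and 3.68 FPKM. Cd3d had 56.4 and 1.98 FPKM, and Cd247 had 34.4 and 0.984 FPKM. All 4 were between 24.6-fold and 34.9-fold higher in label-negative cells, so label-positive cells held between 2.86% and 4.06% of the label-negative level. The proportions between the chains differed by less than the levels. On the FPKM scale, which is per length, the level of Cd3g was 1.46 times that of Cd3e in label-negative and 1.62 times in label-positive cells, and the level of Cd3d was 0.558 and 0.537 times that of Cd3e. Cd247 shifted most, from 0.340 times the level of Cd3e in label-negative to 0.267 times in label-positive cells.

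Because these 4 genes encode chains of 1 receptor, the 250 bases before their RefSeq start sites are shown (build GRCm38.p6, 5′ to 3′ on the gene's strand), with the letters GGAAG, or CTTCC for the other strand, in capitals. GGAA is the core that ETS family factors bind, and several of these factors act in lymphocytes. A GGAA followed by another base, as is present in Cd3g, was not counted and is not in capitals. Cd3d (chr9:44981536-44981785, plus strand) had 2 matches, Cd3e (chr9:45009612-45009861, minus strand) had 3, Cd3g (chr9:44980432-44980681, minus strand) had 0 and Cd247 (chr1:165788431-165788680, plus strand) had 1. Cd3d and Cd3g are neighbours that point away from each other.
Cd3d: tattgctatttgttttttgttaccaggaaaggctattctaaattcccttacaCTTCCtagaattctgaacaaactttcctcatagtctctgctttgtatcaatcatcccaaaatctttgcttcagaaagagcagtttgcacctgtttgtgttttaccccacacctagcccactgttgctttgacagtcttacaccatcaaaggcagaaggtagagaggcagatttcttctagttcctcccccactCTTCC
Cd3e: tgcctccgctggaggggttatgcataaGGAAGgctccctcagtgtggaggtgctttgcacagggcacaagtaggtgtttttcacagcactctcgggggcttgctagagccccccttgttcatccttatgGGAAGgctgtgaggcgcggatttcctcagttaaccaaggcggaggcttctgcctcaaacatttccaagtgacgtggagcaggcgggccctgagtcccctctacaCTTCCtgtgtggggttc
Cd3g: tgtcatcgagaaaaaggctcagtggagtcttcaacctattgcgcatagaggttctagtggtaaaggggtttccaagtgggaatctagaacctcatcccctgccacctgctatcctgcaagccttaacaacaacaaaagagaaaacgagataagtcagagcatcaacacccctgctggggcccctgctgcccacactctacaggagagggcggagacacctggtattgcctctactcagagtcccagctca
Cd247: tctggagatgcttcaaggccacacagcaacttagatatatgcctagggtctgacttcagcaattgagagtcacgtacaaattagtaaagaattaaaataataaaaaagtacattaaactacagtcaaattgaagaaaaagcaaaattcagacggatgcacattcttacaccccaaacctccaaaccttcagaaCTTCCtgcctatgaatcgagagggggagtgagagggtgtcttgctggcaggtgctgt

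All 12 coreceptors and costimulatory receptors of T and NK cells were higher in label-negative cells, with a median log2 ratio of -4.72. The CD8 chains, the coreceptor for MHC class I, were among the largest differences. Cd8b1 had 64.0 FPKM in label-negative and 1.25 FPKM in label-positive cells, and Cd8a had 51.6 and 1.24 FPKM. Cd5, an inhibitory receptor of T cells, had 24.5 and 0.570 FPKM, a 43.1-fold difference. Its relative Cd6 had 30.8 and 0.879 FPKM, and Cd2, an adhesion receptor of T and NK cells, had 108 and 2.90 FPKM. Cd28, the receptor for B7 costimulation, had 43.1 and 1.75 FPKM, and Cd96, a receptor of NK and T cells, had 17.2 and 0.608 FPKM.

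A second set of these receptors differed less. Cd4, the coreceptor for MHC class II, had 31.8 FPKM in label-negative and 2.08 FPKM in label-positive cells, a 15.3-fold difference. Cd226, an activating receptor of NK and T cells, had 22.4 and 1.60 FPKM. Cd69, an early activation antigen, was the most abundant of the 12 in both fractions, with 158 and 12.3 FPKM. Cd7, a surface protein of T and NK cells, had 76.0 and 6.54 FPKM, and Cd27, a costimulatory receptor of the TNF receptor family, had 44.1 and 5.15 FPKM, the smallest difference of the group at 8.56-fold. Cd4 and Cd8a therefore changed order between the fractions. The level of Cd4 was 0.616 times that of Cd8a in label-negative and 1.67 times in label-positive cells. At 2.08 and 1.24 FPKM in label-positive cells, that second ratio rests on low values with no replicate check.

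Of the SLAM family, receptors by which leukocytes bind each other, Cd48 and Cd244 had values. Cd48, the ligand of Cd244, had 52.4 FPKM in label-negative and 7.05 FPKM in label-positive cells. Cd244, a receptor of NK cells, had 11.5 and 1.75 FPKM. Their differences, 7.43-fold and 6.58-fold, were smaller than that of each T cell receptor chain.

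All 6 B cell antigens were higher in label-negative cells, with a median log2 ratio of -5.43. Cd79a and Cd79b are the signalling chains of the B cell receptor. Cd79b had 87.9 FPKM in label-negative and 2.26 FPKM in label-positive cells, and Cd79a, with 184 and 3.51 FPKM, was the most abundant of the group in label-negative cells. Cd22, an inhibitory receptor that binds sialic acid, had 68.3 and 1.44 FPKM. In label-positive cells Cd79a, Cd22 and Cd79b were at 1.90%, 2.10% and 2.57% of the label-negative level. Cd180 and Cd72 differed by less. Cd180, a Toll-like receptor relative, had 23.4 and 3.92 FPKM, and Cd72, an inhibitory lectin of B cells, had 69.0 and 16.4 FPKM, a 4.20-fold difference. The promoter of Cd79a (chr7:24897247-24897496, plus strand, 250 bases before the start) is shown as that gene had the highest level of the group in label-negative cells, with its 1 GGAAG in capitals.
Cd79a: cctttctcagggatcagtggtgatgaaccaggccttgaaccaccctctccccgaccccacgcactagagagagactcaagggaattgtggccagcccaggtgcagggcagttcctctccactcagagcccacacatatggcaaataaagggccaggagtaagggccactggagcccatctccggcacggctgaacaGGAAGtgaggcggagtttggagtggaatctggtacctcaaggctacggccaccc

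Other parts of antigen receptor signalling went the same way. Of 18 kinases and adaptors that act next to these receptors, such as Lck, Zap70, Lat, Blnk and Btk, 15 were listed. All 15 were higher in label-negative cells, against 49.6% of all listed rows. Their log2 ratios lay between -5.15 and -1.39, with a median of -3.63.

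**Figure D2:**
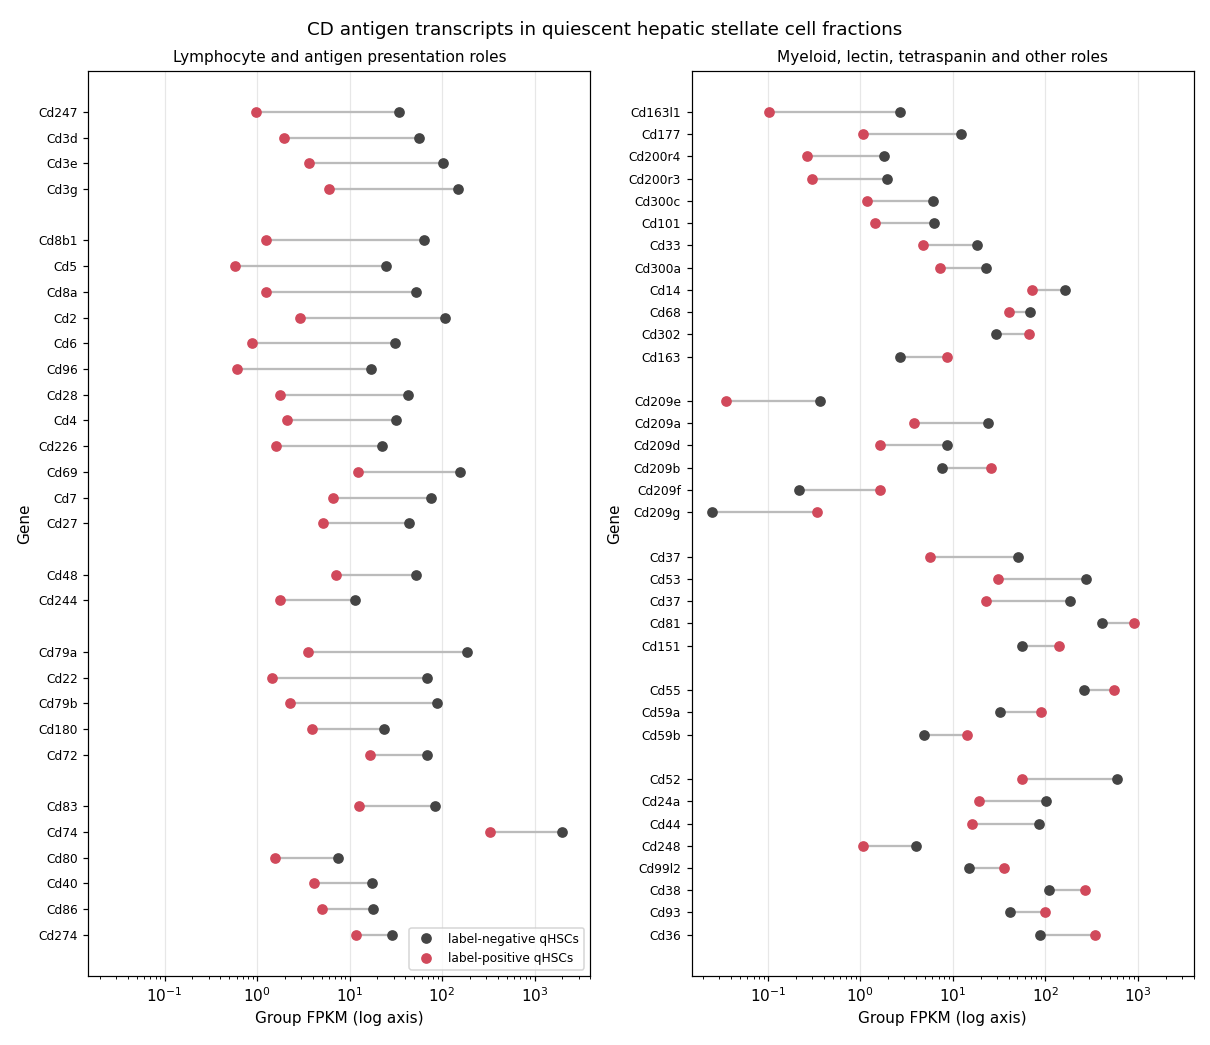
Group FPKM on a log axis of CD antigen rows in label-negative (dark) and label-positive (red) qHSCs, 1 line per row, with a gap between roles. In the left panel every row shown has the dark point on the right, and in the right panel 14 rows have the red point on the right.

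Antigen presentation and costimulatory ligands were all higher in label-negative cells, with a median log2 ratio of -2.18. Cd74, the invariant chain of MHC class II, was the most abundant CD antigen in label-negative cells, with 1960 FPKM against 329 FPKM in label-positive cells. Among all listed rows it ranked 12 in label-negative cells, and in label-positive cells it ranked 143. Cd83, a maturation antigen of dendritic cells, had 83.4 and 12.8 FPKM, the largest difference of the 6 at 6.54-fold. Cd80 and Cd86 are the B7 ligands of Cd28. Cd80 had 7.57 and 1.56 FPKM, and Cd86 had 17.8 and 5.02 FPKM. Cd40, through which T cells activate B cells and macrophages, had 17.5 and 4.15 FPKM. The smallest difference, 2.47-fold, was that of Cd274, the checkpoint ligand PD-L1, with 29.0 and 11.8 FPKM.

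Myeloid receptors did not all go one way: 10 of 12 were higher in label-negative cells and 2 were lower. Cd14, the lipopolysaccharide coreceptor, had the highest level, 164 FPKM in label-negative and 70.9 FPKM in label-positive cells. Cd68, a lysosomal glycoprotein of macrophages, had 68.5 and 40.5 FPKM, and its 1.69-fold difference was the smallest among the 64 rows and the only one below 2-fold. Cd33, a sialic acid-binding receptor, had 18.2 and 4.78 FPKM, and Cd300a, an inhibitory receptor, had 23.1 and 7.20 FPKM. Cd300c had 6.12 and 1.18 FPKM and Cd101, an inhibitory surface protein of myeloid and T cells, had 6.29 and 1.44 FPKM. Of this group 2 were at least 10-fold higher in label-negative cells. Cd177, a neutrophil surface protein, had 12.1 and 1.07 FPKM. Cd163l1, a scavenger receptor relative known from gamma delta T cells, had 2.69 and 0.103 FPKM. Cd200r3 and Cd200r4, relatives of the inhibitory receptor for Cd200, were low in both fractions, with 1.97 and 0.298 FPKM for Cd200r3 and 1.80 and 0.266 FPKM for Cd200r4.

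The myeloid receptors higher in label-positive cells were Cd163 and Cd302. Cd163, the haemoglobin scavenger receptor of tissue macrophages, had 2.66 FPKM in label-negative and 8.56 FPKM in label-positive cells, the opposite direction to its relative Cd163l1. Cd302, a C-type lectin receptor, had 29.3 and 66.9 FPKM. The macrophage markers were split as well, with 7 of 10 higher in label-positive cells. Among them Vsig4, a complement receptor of Kupffer cells, had 13.0 and 51.9 FPKM and Timd4 had 4.14 and 15.1 FPKM, while Mpeg1 had 119 and 42.6 FPKM and Ctss had 247 and 94.9 FPKM.

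The Cd209 lectins had 3 members on each side. Cd209 genes encode relatives of DC-SIGN, the C-type lectin by which dendritic cells and macrophages bind pathogen sugars. Cd209a had 23.7 FPKM in label-negative and 3.79 FPKM in label-positive cells, Cd209d had 8.72 and 1.62 FPKM, and Cd209e had 0.368 and 0.0354 FPKM. Cd209b, known from marginal zone macrophages of the spleen, had 7.55 and 26.0 FPKM. Cd209f had 0.216 and 1.63 FPKM and Cd209g had 0.0247 and 0.340 FPKM. Among the members higher in label-positive cells Cd209g had the largest difference, 13.8-fold, but both of its levels, like those of Cd209e, were below 1 FPKM. In order along chromosome 8 the Cd209 genes with a RefSeq promoter are Cd209a, Cd209e, Cd209d, Cd209b, Cd209c, Cd209f and Cd209g. The first 3 were higher in label-negative cells, and Cd209b, Cd209f and Cd209g were higher in label-positive cells. Cd209c was not analysed here. The Cd209 genes are related to each other, so reads could have been divided between them, which was not checked.

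For the most abundant Cd209 gene on each side the 250 bases before the start are shown, with GGAAG or CTTCC in capitals. Cd209a (chr8:3748985-3749234, minus strand) had 2 matches and 1 TATAAA, and Cd209b (chr8:3926842-3927091, minus strand) had 5 matches and 0 TATAAA.
Cd209a: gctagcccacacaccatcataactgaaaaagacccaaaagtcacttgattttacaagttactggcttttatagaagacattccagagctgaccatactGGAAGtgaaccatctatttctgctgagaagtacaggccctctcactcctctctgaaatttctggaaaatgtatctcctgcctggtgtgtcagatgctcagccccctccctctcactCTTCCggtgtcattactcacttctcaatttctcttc
Cd209b: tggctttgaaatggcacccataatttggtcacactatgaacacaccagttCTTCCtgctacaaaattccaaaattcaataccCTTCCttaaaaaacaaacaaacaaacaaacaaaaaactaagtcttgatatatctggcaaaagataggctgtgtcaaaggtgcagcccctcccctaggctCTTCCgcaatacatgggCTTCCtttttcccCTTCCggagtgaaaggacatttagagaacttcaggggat

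Tetraspanins, membrane proteins that pass the membrane 4 times and organise other receptors, lay on both sides. Cd37 and Cd53 are restricted to leukocytes. Cd53 had 276 FPKM in label-negative and 31.1 FPKM in label-positive cells. Cd37 had 186 and 23.0 FPKM on the row with identifier ENSMUSG00000030798 and 50.1 and 5.65 FPKM on the row with identifier ENSMUSG00000109208, and the files name both rows Cd37. Cd81 and Cd151 are found on most cells and on endothelium. Cd81 was the most abundant CD antigen of label-positive cells, with 406 and 909 FPKM, and ranked 26 among all listed rows there. Cd151, a partner of laminin-binding integrins, had 56.0 and 141 FPKM.

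All 3 complement regulators with values were higher in label-positive cells. Cd55, which breaks up the C3 convertases, had 263 FPKM in label-negative and 546 FPKM in label-positive cells. Cd59a and Cd59b block the membrane attack complex. Cd59a had 32.6 and 90.5 FPKM, and Cd59b had 4.86 and 14.1 FPKM. Their differences lay between 2.08-fold and 2.90-fold. The level of Cd59b was 0.149 times that of Cd59a in label-negative and 0.155 times in label-positive cells. The pair are related genes, so this proportion could depend on how any reads shared by both were assigned, which was not checked.

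The remaining 8 antigens were split 4 and 4. Higher in label-positive cells were Cd36, Cd38, Cd93 and Cd99l2. Cd36, a scavenger and fatty acid receptor, had 86.6 and 346 FPKM, the highest of these ratios. Cd38, an ectoenzyme that consumes NAD, had 111 and 268 FPKM, Cd93, a lectin-like receptor of endothelium, had 41.1 and 99.9 FPKM, and Cd99l2 had 14.8 and 35.7 FPKM. Higher in label-negative cells were Cd52, a small lymphocyte surface glycoprotein, with 599 and 56.2 FPKM, Cd24a, a mucin-like protein of immature lymphocytes and epithelia, with 102 and 19.1 FPKM, Cd44, the hyaluronan receptor, with 85.2 and 16.3 FPKM, and Cd248. Cd248, or endosialin, is known from pericytes and fibroblasts and had 4.005 and 1.07 FPKM.

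**Figure D3:**
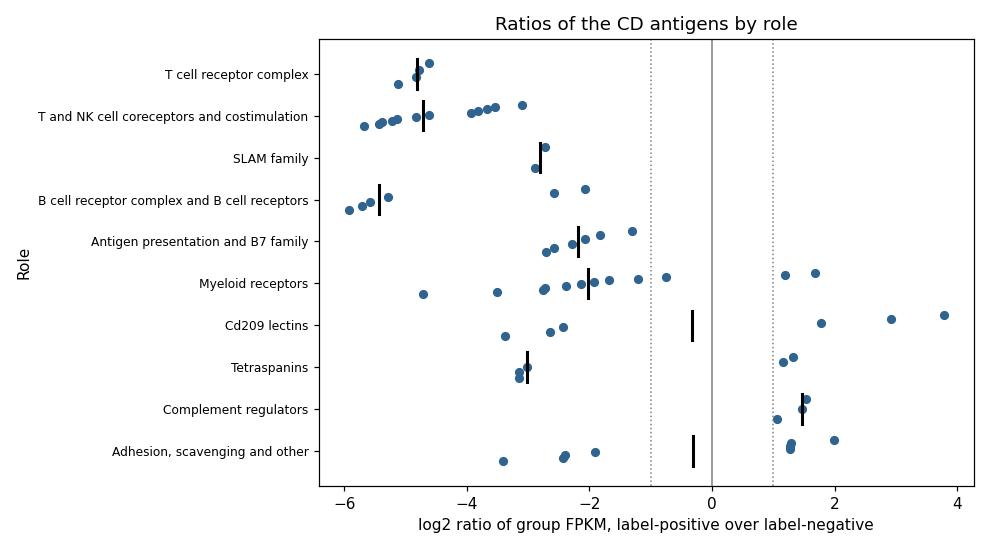
log2 ratio of group FPKM, label-positive over label-negative qHSCs (horizontal axis), of each CD antigen row (point) by role, with the median of each role as a black bar and dotted lines at 2-fold. The T cell receptor chains lie together between -5.13 and -4.62, the complement regulators lie between 1.06 and 1.53, and the Cd209 lectins lie on both sides of 0.

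The differences were larger on the label-negative side. Of the 14 members higher in label-positive cells, 12 differed by 2-fold to 4-fold, with log2 ratios from 1.06 upward, and Cd209f and Cd209g were the others. The 12 sinusoidal endothelial markers had log2 ratios between 1.28 and 1.86 with a median of 1.45. The 12 T and NK markers had a median of -4.82 and the 10 B cell markers a median of -5.47, beside the medians of -4.81 for the T cell receptor chains and -5.43 for the B cell group.

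Promoters in RefSeq were matched for 31 of the 49 genes higher in label-negative cells, with 32 start sites, and for 13 of the 14 genes higher in label-positive cells, with 14 start sites. In the 250 bases before the start, GGAAG on either strand was found in 26 of the 32 (81.2%) and in 9 of the 14 (64.3%), against 64.1% of all 32851 promoters. The E-box letters CANNTG were found in 84.4%, 71.4% and 66.2%. The letters TGTGGT, bound by RUNX factors, were found in 21.9%, 7.14% and 14.0%, and TATAAA in 9.38%, 14.3% and 12.4%. The GC box GGGCGG was found in 12.5%, 35.7% and 32.7%. These counts of letters carry no test and say nothing of binding.

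After WT1 deletion only a few CD antigens had values in aHSCs. GFP-high cells had 2 members among 123 rows with a gene name, Cd200r1 and Cd200r4, and both were higher in WT1-deleted than in control cells, as were 77.2% of all 123 rows. Cd200r1, the inhibitory receptor for Cd200 on myeloid cells, had 3.23 FPKM in control and 9.58 FPKM in WT1-deleted cells, a 2.97-fold difference. Cd200r4 had 0.952 and 3.21 FPKM, a 3.37-fold difference. Both differences were near the median log2 ratio of 1.83 of the listed rows, at 1.57 for Cd200r1 and 1.75 for Cd200r4, and with log2 ratios centred on that median they were -0.26 and -0.073. Among lymphocyte markers the rows that hold the T cell receptor constant regions were listed. Each such row also names further T cell receptor gene segments, so its value is not that of a constant region alone. The row holding Trac had 10.9 FPKM in control and 213 FPKM in WT1-deleted GFP-high cells and the row holding Trbc1 and Trbc2 had 12.1 and 436 FPKM, while no Cd3, Cd4 or Cd8 gene had a value for these cells.

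GFP-low cells had 9 members among 419 rows with a gene name. Of these 8 were lower in WT1-deleted cells, 88.9% of the members against 62.8% of all rows, and 1 was higher, 11.1% against 37.2%. The median log2 ratio, WT1-deleted over control, was -1.71 for the members and -1.33 for the 379 rows above 0 in both groups. With 2 samples in each group and 1 FPKM for each, no spread stands behind these values.

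The largest difference was that of Cd36, on a row shared with Mir5109, with 389 FPKM in control and 57.7 FPKM in WT1-deleted cells, a 6.74-fold difference. Cd22 had 7.21 and 1.33 FPKM, a 5.41-fold difference. The SLAM receptor Cd84, found on macrophages, platelets and lymphocytes, had 119 and 27.0 FPKM, and its relative Cd48 had 88.5 and 37.7 FPKM. Cd33 had 9.49 and 2.77 FPKM and Cd163 had 6.86 and 2.09 FPKM, differences of 3.43-fold and 3.28-fold. Cd33 and Cd163 are myeloid receptors. The leukocyte tetraspanin Cd37 had 99.8 and 34.2 FPKM, and Cd83 had 107 and 45.2 FPKM. Cd48 and Cd83 had the smallest differences of the 8, at log2 ratios of -1.23 and -1.24, and with ratios centred on the median of the listed rows they turned to 0.10 and 0.083.

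The 1 member higher in WT1-deleted GFP-low cells was Cd276, the B7 family protein B7-H3, which is carried by many fibroblasts and other stromal cells. It had 5.51 FPKM in control and 12.4 FPKM in WT1-deleted cells, a 2.24-fold difference.

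**Figure D4:**
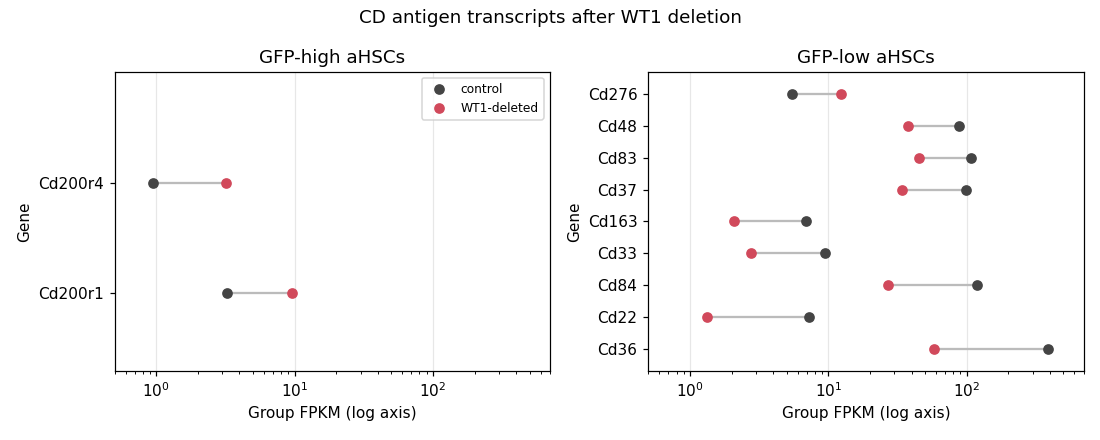
Group FPKM on a log axis of the CD antigens with a value in GFP-high (left) and GFP-low (right) aHSCs, control (dark) and WT1-deleted (red), 1 line per gene. Both genes of GFP-high cells have the red point on the right, and in GFP-low cells Cd276 does, while with ratios centred on the median of all listed rows Cd200r1, Cd200r4, Cd48 and Cd83 turn direction.

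The listed macrophage markers were lower as well. Of 12 markers, 7 rows were listed in GFP-low cells and all 7 were lower in WT1-deleted cells, against 62.8% of all listed rows. The log2 ratios of these 7 rows lay between -2.36 and -1.42, beside the median of -1.33 of the listed rows. Their summed level was 4611 FPKM in control and 1125 FPKM in WT1-deleted cells, and none was at 0. Of 12 sinusoidal endothelial markers 2 were listed, both lower, summing to 138 and 38.9 FPKM. The log2 ratio of Cdh5, -1.15, was above the median of -1.33 of the listed rows, so with centring it would turn. Of 12 stellate cell markers 2 were listed and they were split. Colec11 had 2.92 FPKM in control and 10.7 FPKM in WT1-deleted cells, and Hgf had 9.45 and 3.35 FPKM. Among T and NK markers 1 was listed, Gzma, with 9.93 and 3.05 FPKM, and none of the 10 B cell markers had a value. Of the 18 antigen receptor signalling partners, Blnk had 29.8 and 5.82 FPKM and Btk had 16.5 and 6.45 FPKM. The part of these cells in the lower CD antigen levels was not tested.

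Of the 9 genes with values in GFP-low aHSCs, 7 also had values in qHSCs, which came from other animals. The share of all listed genes common to qHSCs and either GFP fraction was not computed, so nothing is read from such overlaps. All 7 shared genes were lower in WT1-deleted cells, as were 62.8% of all listed GFP-low rows, with Cd48 and Cd83 turning when centred. In qHSCs 5 of them, Cd22, Cd33, Cd37, Cd48 and Cd83, were higher in label-negative cells, as were 49.6% of all listed qHSC rows. Cd36 and Cd163 were higher in label-positive cells. The FPKM values of the tables were set separately, so levels were not compared between qHSCs and aHSCs. No CD antigen had values in both GFP fractions, where 47 gene names in all were shared, 26.3% of those of GFP-high and 10.6% of those of GFP-low cells, so with 2 and 9 members nothing is read from this count. Cd200r4 was the 1 gene with values in both qHSCs and GFP-high aHSCs, where it was higher in label-negative and in WT1-deleted cells.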

How the data were processed

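RNA of sorted hepatic stellate cells was sequenced by the authors on an Illumina HiSeq, mapped with bowtie 2 and compared with Cuffdiff2 per the study's methods. The submitters' processing notes name in addition TopHat2 2.0.3 and Cufflinks 2.0.1, DESeq2 and the builds mm9 and mm10, without saying which was used where. The deposited tables give a single FPKM per group for each gene they list. Their fold changes, p-values and q-values were not used. Gene identifiers were read from the authors' table for qHSCs. Left out were 108 loci of the GFP-high and 149 of the GFP-low table without a gene name.

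Group FPKM values were divided, compared over reference group, and put on the log2 scale with nothing added. As no spread or count was given, the fits planned for values per sample or counts were not made, and limits of 2-fold and 10-fold took the place of a test. All members and the genes of the fixed lists could be named, and 1 member and 1 stellate marker are counted but not reported here by name. Members, roles, motifs and lists were chosen with earlier results of these data known. The marker lists held T and NK, B lymphocyte, macrophage, sinusoidal endothelial, stellate and hepatocyte genes and signalling partners of antigen receptors. Promoters were those of RefSeq for GRCm38.p6. The calculations were tested on simulated data and used Python 3.11.15, pandas 2.3.3 and numpy 2.4.6, with figures by matplotlib 3.10.9.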

Additional observations from a re-analysis of the deposited data

How the results depend on the processing

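No paired analysis was possible because each deposited value combines all samples of its group, and for the same reason no replicate could be left out and no count test was run. The numbers of CD antigens higher, or at least 2-fold higher, in either qHSC fraction moved by at most 1 row, with the exceptions below. The settings were a pseudocount of 1 or 0.1 FPKM, a filter of low values at 1 FPKM, centring, and dropping rows naming several genes. Chosen after seeing the data, each symbol was also counted once. No qHSC member row names several genes, so dropping such rows could not change a count. Centring on the median log2 ratio of all listed rows, a shift of 0.64 for qHSCs, 1.83 for GFP-high and -1.33 for GFP-low cells, lowered the number at least 2-fold higher in label-positive cells from 14 to 5, the number higher in WT1-deleted GFP-high cells from 2 to 0, and raised the number higher in WT1-deleted GFP-low cells from 1 to 3. With a 4-fold limit 2 members were higher in label-positive and 43 in label-negative cells. A pseudocount cannot change the sign of a ratio, so only centring on the median of all listed rows could do so. Centring changed the sign of 4 of the 75 member ratios, all of them in aHSCs. Cd200r1 became -0.26, Cd200r4 -0.073, Cd83 0.083 and Cd48 0.10 on the log2 scale. That median is taken over listed genes only, and the unknown depth limits every level below 1 FPKM.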
